A study of Danio rerio with 30 samples.

Results

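The 56 genes described here encode receptors for glutamate, GABA and glycine in the zebrafish (Danio rerio) retina, with 1 gene of an interacting protein among them. They were taken by name: 67 of the 27731 genes in the deposited table have symbols that begin with those of AMPA, NMDA, kainate, delta and metabotropic glutamate receptors, GABA-A and GABA-B receptors or glycine receptors. Of these, 56 had a normalised count of 10 or more in 5 or more of the 30 libraries, as did 17360 genes in all. A normalised count is a number of reads divided by a factor that evens out depth between libraries. Glutamate receptors make up 30 of the 56 members, GABA receptors 18 and glycine receptors 7. The last member, grid2ipb, matched by its symbol only and encodes a protein that binds a delta receptor.

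The study followed fusion of the optic fissure, an opening along the ventral eye cup that closes as the eye forms. Retina from the region of the fissure (OF) and from the dorsal side (DR, the control region, which has no fissure) was dissected from embryos at 32 hours post-fertilisation (hpf), before fusion, at 48 hpf, while the margins fuse, and at 56 hpf, after it. Each of the 6 groups held 5 biological replicates by the study's design. The labels name no strain, treatment or transgene, and do not say how many embryos made up a library. Ventral retina outside the fissure was not among the groups, so fissure and ventral position cannot be told apart.

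Retinal signals pass from photoreceptors through bipolar cells to ganglion cells by glutamate, while horizontal and amacrine cells act mostly through GABA and glycine. AMPA, NMDA and kainate receptors are cation channels opened by glutamate, and metabotropic receptors act through G proteins. One of these, mGluR6, inverts the photoreceptor signal in ON bipolar cells. GABA-A receptors, their rho type and glycine receptors are chloride channels, and GABA-B receptors act through G proteins. Receptor genes come on as retinal neurons leave the cell cycle and form synapses.

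Libraries held 4492966 to 12318209 reads in genes. The 2 libraries of replicate 1 at 32 hpf had reads in fewer genes than the others (13854 in OF and 11777 in DR), and DR replicate 1 at 56 hpf had reads in more (25740, against 17462 to 21805 in the other 27). In the pair of replicate 5 at 48 hpf the genes of ventral and dorsal eye identity ran against the labels. The 5 ventral genes examined summed to 301 in the library labelled OF and 2338 in the library labelled DR, against 1997 to 2926 and 117 to 209 in the other 4 pairs of that time. Results that rest on these libraries are given with and without them. Apart from that pair, all OF libraries had a higher ventral and a lower dorsal sum than all DR libraries of the same time.

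Most of the 56 members were nearly silent before fusion and were expressed in both regions by 48 hpf. The members summed to 153 to 285 normalised counts per library in OF at 32 hpf, 889 to 5376 at 48 hpf and 3931 to 9377 at 56 hpf. In DR they summed to 157 to 266 at 32 hpf, 604 to 3051 at 48 hpf and 1665 to 6285 at 56 hpf. No library of 48 or 56 hpf fell into the range of 32 hpf in either region. The number of members at 10 or more in at least 3 of 5 libraries was 3 at 32 hpf, 45 at 48 hpf and 49 at 56 hpf in OF. In DR it was 3, 37 and 45 at the same times. At 32 hpf glra1 and grm6b reached that level in both regions, gria4b in OF and gabrb1 in DR. The rule that chose the members used the same value of 10. Of the members, 54 would have passed it on the 48 and 56 hpf libraries alone and 3 on those of 32 hpf alone. Low numbers at 32 hpf are thus partly built in, and they only describe the members that passed.

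**Figure D1:**
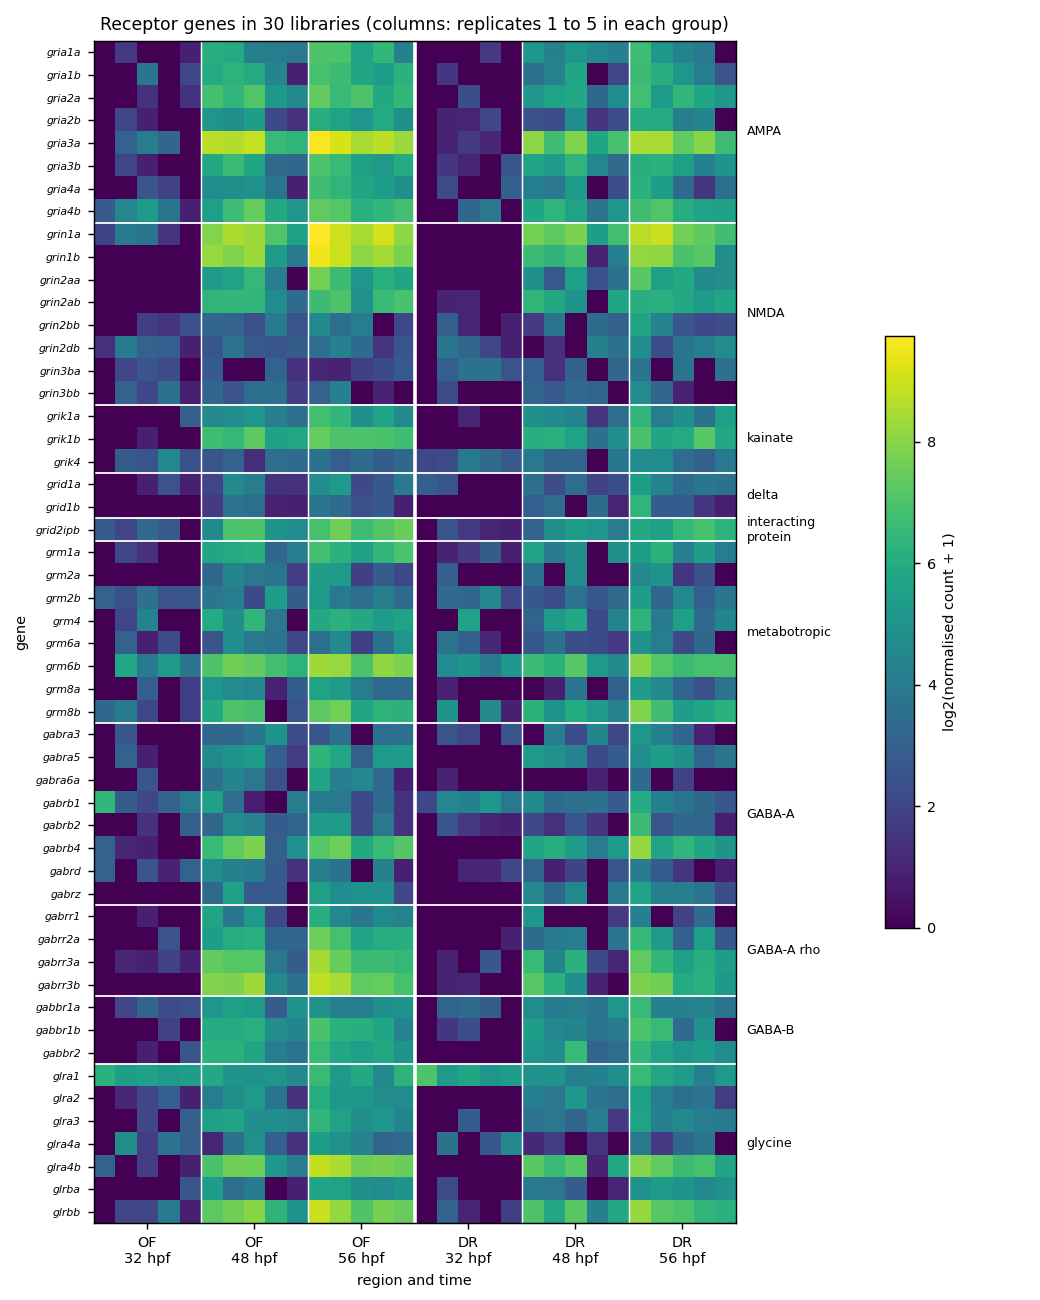
Each row is 1 of 52 receptor genes, grouped by receptor type, and each column 1 of the 30 libraries, with OF on the left, DR on the right and time running from 32 to 56 hpf in each. Colour gives log2(normalised count + 1). Nearly all rows are dark at 32 hpf and light at 56 hpf. In each region 3 of the 56 members reached 10 in at least 3 of 5 libraries at 32 hpf. At 56 hpf 49 (OF) and 45 (DR) did. The rule that chose the members used the same value of 10, so these numbers only describe the members that passed.

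At 56 against 32 hpf, 45 of the 56 members were higher in OF and 41 in DR (limma, Benjamini-Hochberg adjusted p under 0.05 over all 17360 genes), which is 80.4% and 73.2%. None was lower. Over all genes tested, 29.7% were higher in OF and 26.7% in DR, and 42.2% and 35.8% changed in either direction. Both regions shared 40 of the calls. The median log2 fold change of the members was 4.50 in OF and 3.79 in DR, where the median over all genes was 0.42 and 0.46. With members that had no read at 32 hpf set to a lower bound, these medians were 4.50 and 3.62. The filter admitted most members through their later libraries: 54 of 56 would have passed on the 48 and 56 hpf libraries alone and 3 on those of 32 hpf alone. These counts are therefore descriptions of the members that passed. The 5 libraries of 56 hpf all lay above the 5 of 32 hpf for 40 members in OF and 34 in DR, as they did for 22.5% and 17.8% of all genes. Fewer cells of a type and less RNA per cell cannot be told apart in bulk tissue.

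Most of these calls were already made at 48 hpf. Against 32 hpf, 43 members were higher in OF at that time (25.6% of all genes were, and 35.2% changed in either direction). In DR 34 were higher (22.1% of all genes were, and 28.5% changed), and no member was lower in either region. The median log2 fold change was 3.23 in OF and 2.86 in DR, or 3.20 and 2.36 with members at their lower bound, against 0.38 and 0.35 over all genes. Of the 43 members called in OF at 48 hpf, 42 were called at 56 hpf as well, and all 34 of DR were. The exception was gabra3, a GABA-A alpha subunit, at 2.97 ± 0.96 (SE, adjusted p = 0.0163) for 48 hpf and 2.15 ± 0.96 (SE, adjusted p = 0.0725) for 56 hpf. Without the 5 libraries that stand apart the counts were 44 in OF and 33 in DR at 48 hpf, and 45 and 38 at 56 hpf.

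The counts depended in part on how libraries were scaled. Under quantile scaling, chosen after seeing the data, the median change of all genes at 56 against 32 hpf was -0.22 in OF and -0.20 in DR, while that of the members was 2.93 and 1.80. Relative to all genes, members were thus 3.15 and 1.99 higher, where the deposited scaling gave 4.09 and 3.33. The calls then numbered 37 higher and 2 lower in OF (gabrb1 and grin3bb) and 27 higher and 1 lower in DR (grin3ba). The calls lost in OF were those of gabbr1a, gabra6a, gabrb2, grid1a, grid1b, grm2a, grm6a and grm8a. Those lost in DR included gabbr1a, gabbr1b, gabrz, glra2, gria1a, gria2b, gria4a, grid1a, grid1b, grin2bb, grm1a, grm4 and grm8a.

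**Figure D2:**
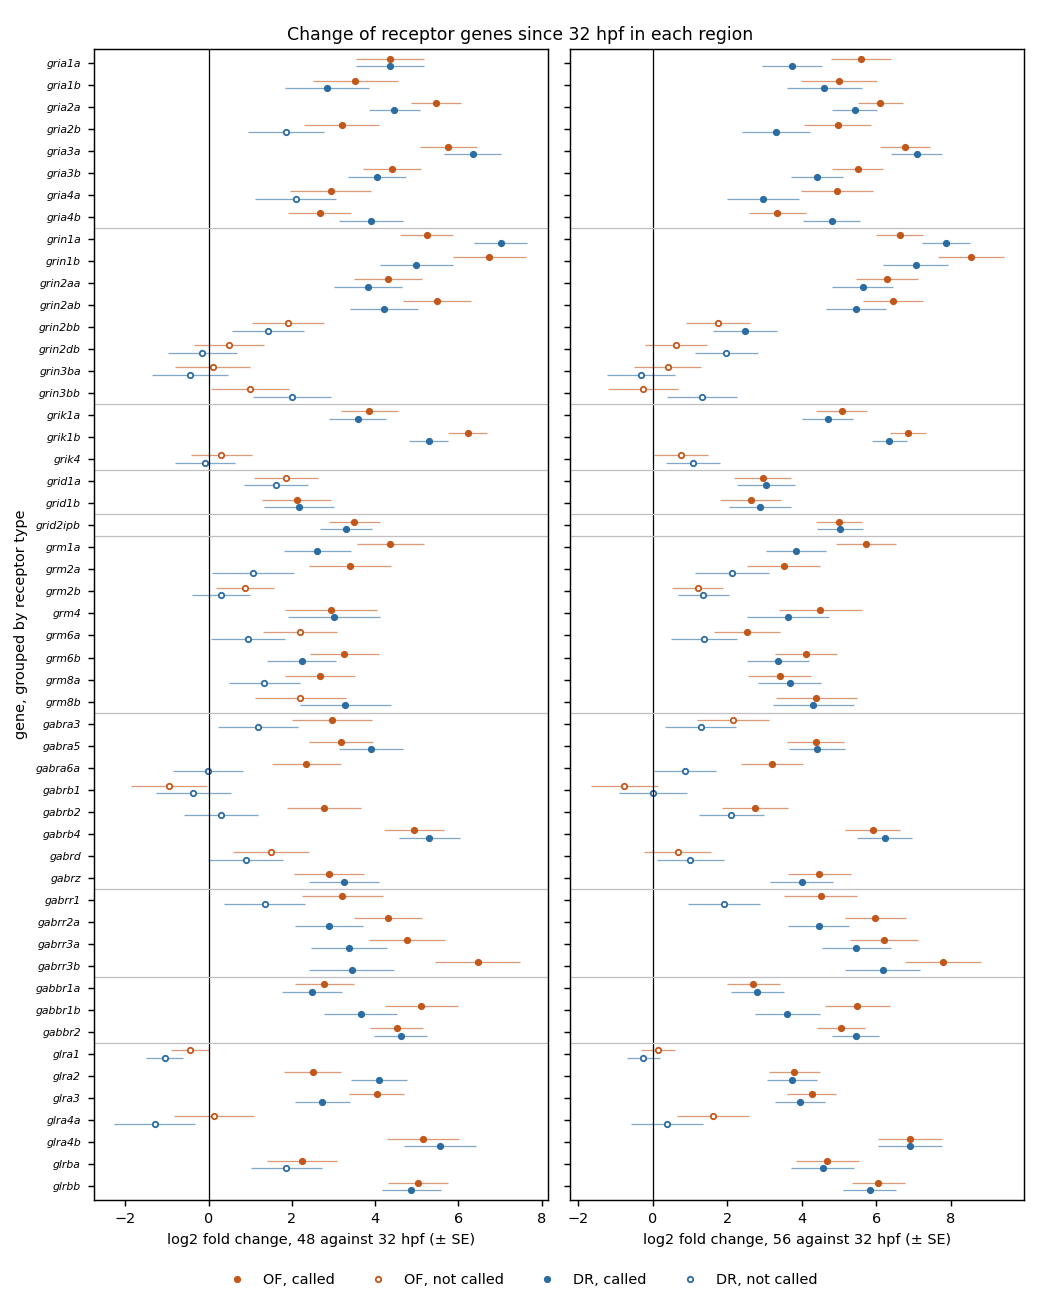
Points give the log2 fold change (± SE, on the log2(value + 1) scale) of 52 members at 48 hpf (left) and 56 hpf (right) against 32 hpf, in OF (orange) and DR (blue); filled points passed an adjusted p under 0.05. At 56 hpf 41 of these points are filled in OF and 37 in DR, all to the right of 0. For members with no read at 32 hpf the point depends on the pseudocount of 1, and the open points near 0 are mainly NMDA subunits of the 2D and 3B kinds, grik4, grm2b, gabrb1, gabrd, glra1 and glra4a.

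All 8 AMPA receptor genes were higher at 56 hpf in both regions with the deposited scaling. Quantile scaling kept all 8 calls in OF and lost those of gria1a (adjusted p = 0.0765), gria2b (adjusted p = 0.237) and gria4a (adjusted p = 0.348) in DR. AMPA receptors carry most fast excitation and are built from 4 kinds of subunit, each of which has an a and a b gene in zebrafish. One of the GluA3 genes is gria3a (ENSDARG00000032737). In OF, gria3a had 0, 7.32, 16.2, 8.30 and 0 normalised counts at 32 hpf, 421, 388, 476, 94.3 and 82.2 at 48 hpf and 802, 562, 348, 423 and 308 at 56 hpf. In DR, gria3a had 0, 0.95, 2.05, 1.04 and 0 normalised counts at 32 hpf, 265, 106, 237, 52.3 and 118 at 48 hpf and 365, 349, 166, 247 and 103 at 56 hpf. All libraries of 48 and 56 hpf were above all of 32 hpf, and at 48 hpf replicates 4 and 5 of OF were far below replicates 1 to 3. For gria3a the log2 fold change at 56 against 32 hpf was 6.77 ± 0.68 (SE, adjusted p = 5.01e-09) in OF and 7.08 ± 0.68 (adjusted p = 2.33e-09) in DR. The other 7 had log2 fold changes of 3.34 (gria4b) to 6.11 (gria2a) in OF and 2.96 (gria4a) to 5.42 (gria2a) in DR.

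The GluA2 subunit, which keeps calcium out of the channel, is encoded by gria2a (ENSDARG00000070173) and gria2b. In OF, gria2a had 0, 0, 1.62, 0 and 1.67 normalised counts at 32 hpf, 115, 84.8, 136, 36 and 22.4 at 48 hpf and 167, 94, 129, 59.9 and 85.3 at 56 hpf. In DR, gria2a had 0, 0, 4.10, 0 and 0 normalised counts at 32 hpf, 32.9, 49.6, 58.3, 8.87 and 25.6 at 48 hpf and 108, 38.9, 83.8, 52.2 and 35.9 at 56 hpf. Its groups of 56 and 32 hpf did not overlap in either region. For gria2a the log2 fold change at 56 against 32 hpf was 6.11 ± 0.60 (SE, adjusted p = 3.56e-09) in OF and 5.42 ± 0.60 (adjusted p = 3.09e-08) in DR. For gria2b, 28.2 to 66.8 normalised counts at 56 hpf stood against 0 to 3.14 at 32 hpf in OF. In DR, gria2b had 0 to 62.4 against 0 to 3.13, and replicate 5 at 56 hpf was without a read. The GluA4 gene gria4b (ENSDARG00000059368) was already read in all OF libraries at 32 hpf, with 5.92, 22, 38.9, 12.9 and 0.83 normalised counts, and in 2 of 5 DR libraries. The DR call of its paralog gria4a, at 2.96 ± 0.97 (SE, adjusted p = 0.0173), was lost without replicate 1 (adjusted p = 0.0685) or replicate 2 (adjusted p = 0.0518) of DR at 56 hpf, and without the libraries that stand apart (adjusted p = 0.094). For the remaining GluA1 gene gria1b and GluA3 gene gria3b, values at 56 hpf were 42 to 118 and 37.5 to 127 in OF, and 4.68 to 101 and 18.3 to 72.7 in DR. In both regions, gria1a, the other GluA1 gene, was at 0 to 2.09 in all libraries of 32 hpf and was higher at 56 hpf, by 5.58 ± 0.81 (SE, adjusted p = 2.12e-06) in OF and 3.73 ± 0.81 (SE, adjusted p = 0.000575) in DR.

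Among NMDA receptor genes the calls differed by subunit, although a difference between subunits was not tested. NMDA receptors need GluN1, which binds glycine or serine, together with GluN2 subunits, which bind glutamate, and GluN3 subunits can replace some of these. Both GluN1 genes and both GluN2A genes were higher at 56 hpf in both regions, while grin2db and both GluN3B genes were called in neither. No read of grin1b (ENSDARG00000025728) was found in any of the 10 libraries of 32 hpf. In OF it had 298, 238, 317, 39.4 and 14.4 normalised counts at 48 hpf and 723, 503, 268, 337 and 216 at 56 hpf. DR libraries had 98.7, 78.8, 115, 0.89 and 17.4 at 48 hpf and 284, 278, 123.5, 145 and 27.3 at 56 hpf. With 3 reads per library as the limit that a count of 0 allows, which covers counting error only, grin1b was at least 133-fold higher at 56 than at 32 hpf in OF and at least 40-fold in DR. Its adjusted p was 7.45e-09 in OF and 2.15e-07 in DR.

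The paralog grin1a (ENSDARG00000027828) was read before fusion, in OF. In OF, grin1a had 2.96, 15.7, 12.16, 1.85 and 0 normalised counts at 32 hpf, 242, 374, 316, 136 and 46.3 at 48 hpf and 852, 514, 354, 556 and 271 at 56 hpf. In DR, grin1a had 0, 0, 0, 0 and 0 normalised counts at 32 hpf, 205, 159.9, 225, 43.5 and 109 at 48 hpf and 412, 496, 201, 158 and 107 at 56 hpf. At 32 hpf 4 of 5 OF libraries and no DR library had a read of it. It was at least 64-fold higher at 56 than at 32 hpf in DR, and its log2 fold change in OF was 6.63 ± 0.64 (SE, adjusted p = 2.31e-09). The GluN2A genes grin2aa and grin2ab had 33.8 to 200.3 and 29.5 to 132 normalised counts in OF at 56 hpf. In DR they had 24.4 to 149.8 and 40.03 to 71.6. At 32 hpf grin2aa had no read in any library, and grin2ab 1 read in each of 2 DR libraries and none in OF. The GluN2B gene grin2bb was called in DR, at 2.47 ± 0.86 (SE, adjusted p = 0.0253), but not in OF, at 1.75 ± 0.86 (SE, adjusted p = 0.104). The DR call was lost when replicate 1 (adjusted p = 0.1) or replicate 2 (adjusted p = 0.0622) of 56 hpf was left out, or replicate 1 (adjusted p = 0.0642) or replicate 4 (adjusted p = 0.0607) of 32 hpf. The OF value passed without OF replicate 4 of 56 hpf (adjusted p = 0.019).

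**Figure D3:**
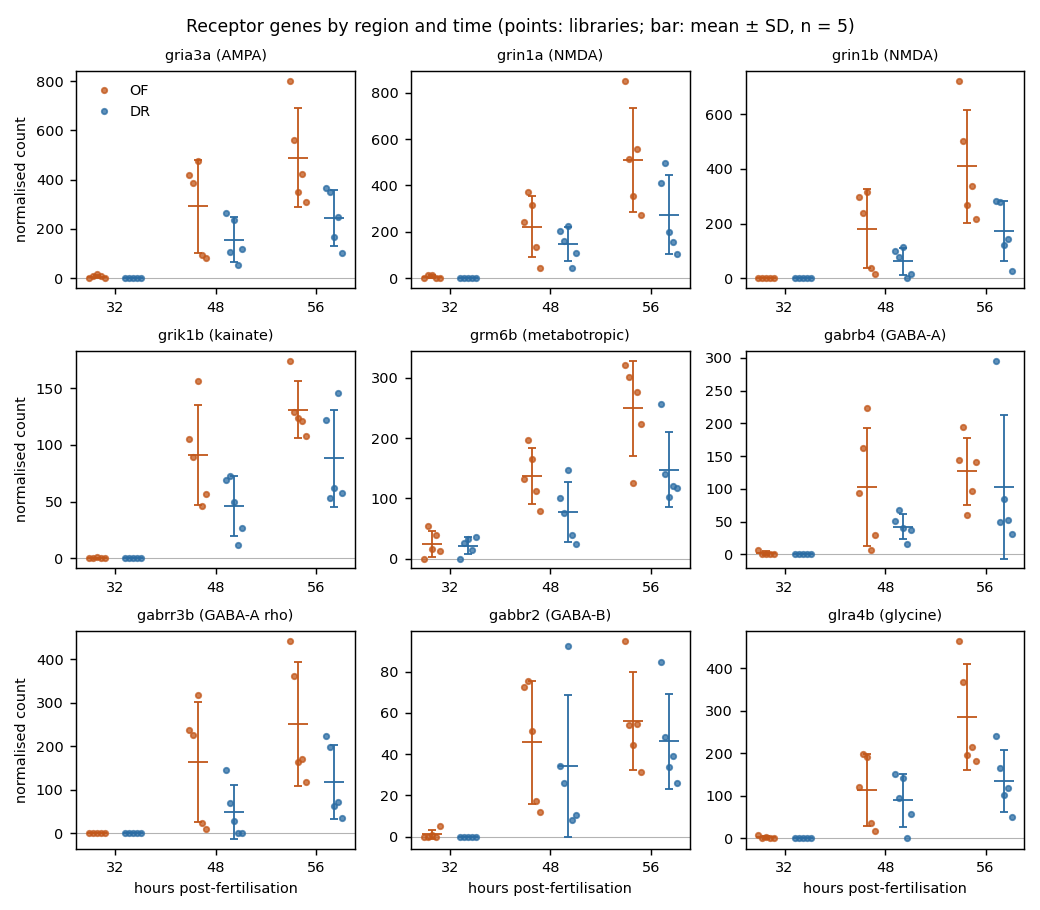
Normalised counts of 9 receptor genes, 1 to 2 of each main type, are plotted by time, with OF (orange) left of DR (blue) at each time, a point per library and a bar for the mean ± SD of 5 libraries. All 9 lie near 0 at 32 hpf apart from grm6b, and in OF at 48 hpf the 2 lowest points of grin1b (14.4 and 39.4), gabrb4 (29.5 and 6.85) and gabrr3b (11.2 and 24) are replicates 5 and 4.

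Of the 3 kainate receptor genes, both GluK1 genes were higher at 56 hpf in both regions and the GluK4 gene grik4 was not. GluK1 forms channels on OFF bipolar cells in mammals, whereas GluK4 works only beside other subunits. The first of them is grik1b (ENSDARG00000040627). In OF, grik1b had 0, 0, 0.81, 0 and 0 normalised counts at 32 hpf, 105, 89.5, 157, 46.3 and 56.7 at 48 hpf and 174, 129, 124, 121 and 108 at 56 hpf. A single read among the 10 libraries of 32 hpf was all that was found then. In DR, where there was none, it had 69, 72.5, 49.3, 11.5 and 26.6 normalised counts at 48 hpf and 122, 53.2, 61.7, 145 and 57.7 at 56 hpf. For grik1b the adjusted p at 56 against 32 hpf was 7.89e-12 in OF and 2.76e-11 in DR, and the DR libraries were at least 20-fold higher. Its paralog grik1a had 23.2 to 111 normalised counts in OF at 56 hpf and 11.3 to 81.8 in DR, and was read in 1 of 5 libraries of each region at 32 hpf.

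Delta receptors bind cerebellins across the synapse and pass little current. Both genes of the delta1 receptor were called higher at 56 hpf in both regions with the deposited scaling, and none of these 4 calls was made under quantile scaling. Adjusted p was then 0.381 in OF and 0.299 in DR for grid1a, and 0.684 in OF and 0.42 in DR for grid1b. The gene grid1b, with no read at 32 hpf, had 81.8, 6.14, 6.17, 1.74 and 0.78 normalised counts in DR at 56 hpf, so that replicate 1 stood far above the others, and without the libraries that stand apart its adjusted p was 0.0665. The gene grid1a was called at 2.94 ± 0.78 (SE, adjusted p = 0.00266) in OF and 3.04 ± 0.78 (SE, adjusted p = 0.0026) in DR. The interacting protein gene grid2ipb (ENSDARG00000095603) had 103 to 196 normalised counts at 56 hpf against 0 to 8.92 at 32 hpf in OF. In DR it had 46.1 to 120.1 against 0 to 4.75, and neither pair of groups overlapped.

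Of the 8 metabotropic glutamate receptor genes, 7 were higher at 56 hpf in OF and 5 in DR, of which quantile scaling lost 3 calls in OF (grm2a, grm6a and grm8a) and 3 in DR (grm1a, grm4 and grm8a). The ON bipolar receptor mGluR6 has the genes grm6b and grm6a. Of these, grm6b (ENSDARG00000025671) was one of the few members read well before fusion. In OF, grm6b had 0, 54.4, 15.4, 39.7 and 12.5 normalised counts at 32 hpf, 133, 197, 166, 112 and 78.2 at 48 hpf and 322, 302, 125, 276 and 224 at 56 hpf. In DR, grm6b had 0, 25.7, 31.8, 14.6 and 35.3 normalised counts at 32 hpf, 101, 75.6, 147, 39 and 23.5 at 48 hpf and 257, 141, 102, 120.1 and 118 at 56 hpf. At 32 hpf both libraries of replicate 1 lacked a read while the other 8 held 12.5 to 54.4, and at 56 hpf all libraries exceeded every library of 32 hpf. For grm6b the log2 fold change at 56 against 32 hpf was 4.11 ± 0.83 (SE, adjusted p = 0.00017) in OF and 3.35 ± 0.83 (adjusted p = 0.00199) in DR. Its paralog grm6a was called in OF, at 2.53 ± 0.89 (SE, adjusted p = 0.0219), and not in DR, at 1.36 ± 0.89 (SE, adjusted p = 0.235). That OF call was lost without replicate 1 or 5 of 32 hpf or replicate 2 or 5 of 56 hpf (adjusted p 0.056 to 0.0634), and edgeR gave an adjusted p of 0.0506.

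Among the other group III receptors, which lower transmitter release, grm8b (ENSDARG00000076508) was higher at 56 hpf by 4.39 ± 1.09 (SE, adjusted p = 0.00158) in OF and 4.31 ± 1.09 (SE, adjusted p = 0.00249) in DR. Its values in OF were 8.88, 15.7, 3.24, 0 and 2.50 at 32 hpf, 57.2, 128, 115, 0 and 4.79 at 48 hpf and 153, 202, 52, 78.6 and 74.6 at 56 hpf, with replicates 4 and 5 of 48 hpf within the range of 32 hpf. Both grm8a and grm4 were called in both regions too, grm8a by 3.40 ± 0.84 (SE, adjusted p = 0.00157) in OF and 3.67 ± 0.84 (SE, adjusted p = 0.000994) in DR. The DR library of replicate 3 at 32 hpf had 48.1 normalised counts of grm4, where the other 4 had none. The DR call of grm4 (adjusted p = 0.0105) was not made by edgeR (adjusted p = 0.284). The gene grm1a, the group I receptor gene that passed, had 46.8 to 125 normalised counts in OF at 56 hpf and 16.4 to 75.7 in DR, against 0 to 3.14 and 0 to 6.26 at 32 hpf. Its log2 fold change was 5.73 ± 0.81 (SE, adjusted p = 1.18e-06) in OF and 3.84 ± 0.81 (SE, adjusted p = 0.000367) in DR. Of the group II genes, grm2a had no read in OF at 32 hpf and was higher there by at least 6-fold (adjusted p = 0.00475), and grm2b was called in neither region.

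Of the 11 GABA-A receptor genes apart from the rho type, 8 were higher at 56 hpf in OF and 6 in DR. The receptor is usually made of alpha and beta subunits with a gamma subunit, which ties it to the synapse. The beta4 subunit is encoded by gabrb4 (ENSDARG00000099096). In OF, gabrb4 had 7.40, 1.05, 0.81, 0 and 0 normalised counts at 32 hpf, 94, 162, 223, 6.85 and 29.5 at 48 hpf and 144, 194, 59.8, 96.5 and 141 at 56 hpf. In DR, gabrb4 had 0, 0, 0, 0 and 0 normalised counts at 32 hpf, 50.4, 67.8, 40.2, 16 and 36.8 at 48 hpf and 296, 50.1, 84.7, 53.1 and 32 at 56 hpf. No DR library had a read at 32 hpf, and all libraries of 56 hpf were above all of 32 hpf, whereas OF replicate 4 of 48 hpf was within the OF range of 32 hpf. At 56 hpf DR replicate 1 stood far above the other 4 DR libraries. The log2 fold change of gabrb4 at 56 against 32 hpf was 5.90 ± 0.73 (SE, adjusted p = 1.69e-07) in OF, and in DR the gene was at least 24-fold (adjusted p = 7.86e-08) higher. The beta2 gene gabrb2 was called in OF, at 2.75 ± 0.88 (SE, adjusted p = 0.0124), and missed the threshold in DR, at 2.11 ± 0.88 (SE, adjusted p = 0.0618). In DR it was called by edgeR (adjusted p = 0.0191). The limma fit called it there without replicate 2 of 32 hpf (adjusted p = 0.0428) or replicate 5 of 56 hpf (adjusted p = 0.0172). Its OF call was lost under quantile scaling (adjusted p = 0.403). The alpha5 gene gabra5 and the zeta gene gabrz were called in both regions, gabra5 by 4.37 ± 0.76 (SE, adjusted p = 2.76e-05) on the log2 scale in OF and at least 5-fold (adjusted p = 3.28e-05) in DR.

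The rho type, once called GABA-C, is known from bipolar and horizontal cells. Its 4 members had the highest median change of the receptor types in OF. A further rho gene, spelled in capitals and not matched by the rule, was read at 32 hpf and is given below. The median log2 fold change of the 4 members at 56 against 32 hpf was 6.09 in OF and 4.96 in DR. With genes without a read at 32 hpf at their bound, the medians were 6.09 in OF and 4.96 in DR. All 4 were called in OF and 3 in DR. The gene gabrr3b (ENSDARG00000030750) had no read in OF and 1 read in each of 2 libraries in DR at 32 hpf. OF libraries had 238, 226, 318, 24 and 11.2 normalised counts of it at 48 hpf and 442, 361, 165, 171 and 118 at 56 hpf. DR libraries had 146, 70.9, 28.2, 0.89 and 0 at 48 hpf and 223, 198, 62.6, 71.4 and 35.9 at 56 hpf. In OF it was at least 82-fold higher at 56 than at 32 hpf, and the log2 fold change in DR was 6.17 ± 1.02 (SE, adjusted p = 1.72e-05).

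Its paralog gabrr3a (ENSDARG00000027153) was read at 32 hpf at 0 to 5.22 only. In OF, gabrr3a had 0, 1.05, 0.81, 2.77 and 0.83 normalised counts at 32 hpf, 167, 144, 143, 13.7 and 6.39 at 48 hpf and 340.1, 178, 102, 100.1 and 87.8 at 56 hpf. In DR, gabrr3a had 0, 0.95, 0, 5.22 and 0 normalised counts at 32 hpf, 95.4, 20.5, 74.4, 3.55 and 1.02 at 48 hpf and 165, 86, 46.7, 67.9 and 41.3 at 56 hpf. Replicates 4 and 5 at 48 hpf were again low in both regions. For gabrr3a the log2 fold change at 56 against 32 hpf was 6.21 ± 0.92 (SE, adjusted p = 2.66e-06) in OF and 5.46 ± 0.92 (adjusted p = 2.33e-05) in DR. For gabrr2a (ENSDARG00000052982) the values at 56 hpf were 191, 119, 51.1, 63.4 and 70.4 in OF and 90.2, 40.9, 7.06, 44.4 and 5.46 in DR, against 0 to 4.61 and 0 to 0.8 at 32 hpf. The remaining rho member, gabrr1 (ENSDARG00000043902), was called in OF, at 4.50 ± 0.97 (SE, adjusted p = 0.000378). In DR, where it had no read at 32 hpf, limma did not call it (adjusted p = 0.128) and edgeR did (adjusted p = 0.0303).

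GABA-B receptors are pairs of a subunit that binds GABA and one that couples to the G protein. All 3 genes were higher at 56 hpf in both regions with the deposited scaling. Quantile scaling lost the call of gabbr1a in OF (adjusted p = 0.231) and in DR (adjusted p = 0.149), and that of gabbr1b in DR (adjusted p = 0.0835). The coupling subunit is encoded by gabbr2 (ENSDARG00000061042). In OF, gabbr2 had 0, 0, 0.81, 0 and 5.00 normalised counts at 32 hpf, 72.5, 75.5, 51.3, 17.1 and 12 at 48 hpf and 94.9, 54.1, 44.2, 54.5 and 31.5 at 56 hpf. In DR, gabbr2 had 0, 0, 0, 0 and 0 normalised counts at 32 hpf, 34, 26, 92.5, 7.98 and 10.2 at 48 hpf and 84.6, 48.1, 33.5, 39.2 and 25.7 at 56 hpf. No DR library had a read at 32 hpf, and all libraries of 48 and 56 hpf were above those of 32 hpf. The log2 fold change of gabbr2 at 56 against 32 hpf was 5.05 ± 0.64 (SE, adjusted p = 2.18e-07) in OF, and in DR the gene was at least 10-fold (adjusted p = 7.07e-08) higher. The gene gabbr1a of the binding subunit was at 0 to 9.22 in all libraries of 32 hpf and had 17.3 to 31.3 normalised counts at 56 hpf in OF. Its 95.7 in DR replicate 1 stood above 12.5 to 20.01 in the other DR libraries. Its paralog gabbr1b was called at 5.49 ± 0.88 (SE, adjusted p = 7.84e-06) in OF and 3.61 ± 0.88 (SE, adjusted p = 0.00167) in DR, where replicate 5 had no read.

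Glycine receptors consist of alpha subunits with a beta subunit that binds gephyrin. Of their 7 genes, 5 were higher at 56 hpf in both regions, although the DR call of glra2 was lost under quantile scaling (adjusted p = 0.0501). An alpha4 subunit is encoded by glra4b (ENSDARG00000058103). In OF, glra4b had 7.40, 0, 2.43, 0 and 0.83 normalised counts at 32 hpf, 122, 198, 192, 36 and 16 at 48 hpf and 464, 366, 195, 215 and 181 at 56 hpf. In DR, glra4b had 0, 0, 0, 0 and 0 normalised counts at 32 hpf, 151, 94.5, 142, 0.89 and 57.2 at 48 hpf and 241, 165, 101, 117 and 49.9 at 56 hpf. Its lowest library at 56 hpf, DR replicate 5, was above all of 32 hpf, and in DR the change was at least 31-fold. In OF the log2 fold change of glra4b was 6.91 ± 0.87 (SE, adjusted p = 2.17e-07). The beta subunit gene glrbb (ENSDARG00000052769) had 478, 289.6, 132, 212 and 177 normalised counts in OF at 56 hpf and 289, 145, 124, 84.4 and 73.3 in DR, against 0 to 15.7 and 0 to 7.60 at 32 hpf. For glrbb the log2 fold change at 56 against 32 hpf was 6.06 ± 0.71 (SE, adjusted p = 7.43e-08) in OF and 5.82 ± 0.71 (adjusted p = 1.64e-07) in DR. The alpha genes glra2 and glra3 changed by 3.80 ± 0.68 (SE, adjusted p = 3.82e-05) and 4.26 ± 0.67 (SE, adjusted p = 6.03e-06) in OF. In DR glra2 had no read at 32 hpf and was at least 4-fold (adjusted p = 6.43e-05) higher at 56 hpf, and glra3 changed by 3.96 ± 0.67 (SE, adjusted p = 2.35e-05). The second beta gene, glrba, was called at 56 hpf in both regions and, at 48 hpf, in OF but not in DR (adjusted p = 0.0391 in OF and 0.0991 in DR).

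Against this common course, glra1 (ENSDARG00000012019), the alpha1 glycine receptor gene, was the only member with 10 or more in all 30 libraries. In OF, glra1 had 72.5, 41.8, 47, 36.9 and 41.6 normalised counts at 32 hpf, 58.2, 31.7, 30.2, 34.3 and 23.1 at 48 hpf and 94.9, 36.1, 58, 23.2 and 77 at 56 hpf. In DR, glra1 had 133, 38, 52.2, 32.4 and 40.9 normalised counts at 32 hpf, 29.6, 32.3, 17.1, 18.6 and 26.6 at 48 hpf and 93, 55.3, 40.6, 17.4 and 38.2 at 56 hpf. Its groups overlapped at all times in OF. In DR all libraries of 48 hpf were at or below 32.3 and all of 32 hpf were above that. For glra1 the log2 fold change at 48 against 32 hpf was -0.45 ± 0.45 (SE, adjusted p = 0.466) in OF and -1.06 ± 0.45 (adjusted p = 0.0782) in DR. Both edgeR (adjusted p = 0.0488) and a fit with the replicate number as a block (adjusted p = 0.0439) called it lower at 48 hpf in DR. Libraries of the same number at other times did not deviate together (median r 0.04), so that block has no basis in the data. The highest DR value of glra1 at 32 hpf, 133, was in replicate 1, where 1 read was 3.33 normalised counts. Quantile scaling called glra1 lower at 48 hpf in OF too, at -1.40, and at -1.83 in DR. For glra1 the log2 fold change at 56 against 32 hpf was 0.14 ± 0.45 (SE, adjusted p = 0.828) in OF and -0.26 ± 0.45 (adjusted p = 0.68) in DR.

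A further 8 members were called by limma in no comparison of times when all 30 libraries were fitted with the deposited scaling, and are named here after their values were seen. They were gabrb1, gabrd, glra4a, grik4, grin2db, grin3ba, grin3bb and grm2b. The beta1 subunit gene gabrb1 had 87.4, 6.28, 3.24, 7.38 and 16.6 normalised counts in OF at 32 hpf, 45, 10.2, 0.7, 0 and 16 at 48 hpf and 14.6, 14.2, 3.47, 8.94 and 1.66 at 56 hpf. In DR it had 3.33, 21.9, 18.4, 33.4 and 14.4 at 32 hpf, 24.1, 9.45, 11.1, 11.5 and 6.13 at 48 hpf and 62.4, 18.4, 12.3, 8.70 and 5.46 at 56 hpf. OF replicate 1 at 32 hpf exceeded every other library, and the groups overlapped. The kainate gene grik4 was at 0 to 22.1, 1.41 to 10.3 and 6.25 to 11.5 in OF at 32, 48 and 56 hpf, and at 3.33 to 15.4, 0 to 14.2 and 6.96 to 25.6 in DR. The GluN3B genes grin3ba and grin3bb did not exceed 12.5 and 25.0 in any library. Some of the 8 were called higher in DR when libraries were left out. At 56 against 32 hpf these were grin2db without replicate 2 (adjusted p = 0.029) or replicate 3 (adjusted p = 0.0436) of 32 hpf or replicate 2 of 56 hpf (adjusted p = 0.0369), and grm2b without replicate 4 of 32 hpf (adjusted p = 0.0437). At 48 against 32 hpf grin3bb was called without replicate 5 of 48 hpf (adjusted p = 0.0405) and without the libraries that stand apart (adjusted p = 0.0371). An adjusted p above 0.05 at such counts does not show that these genes stayed level.

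**Figure D4:**
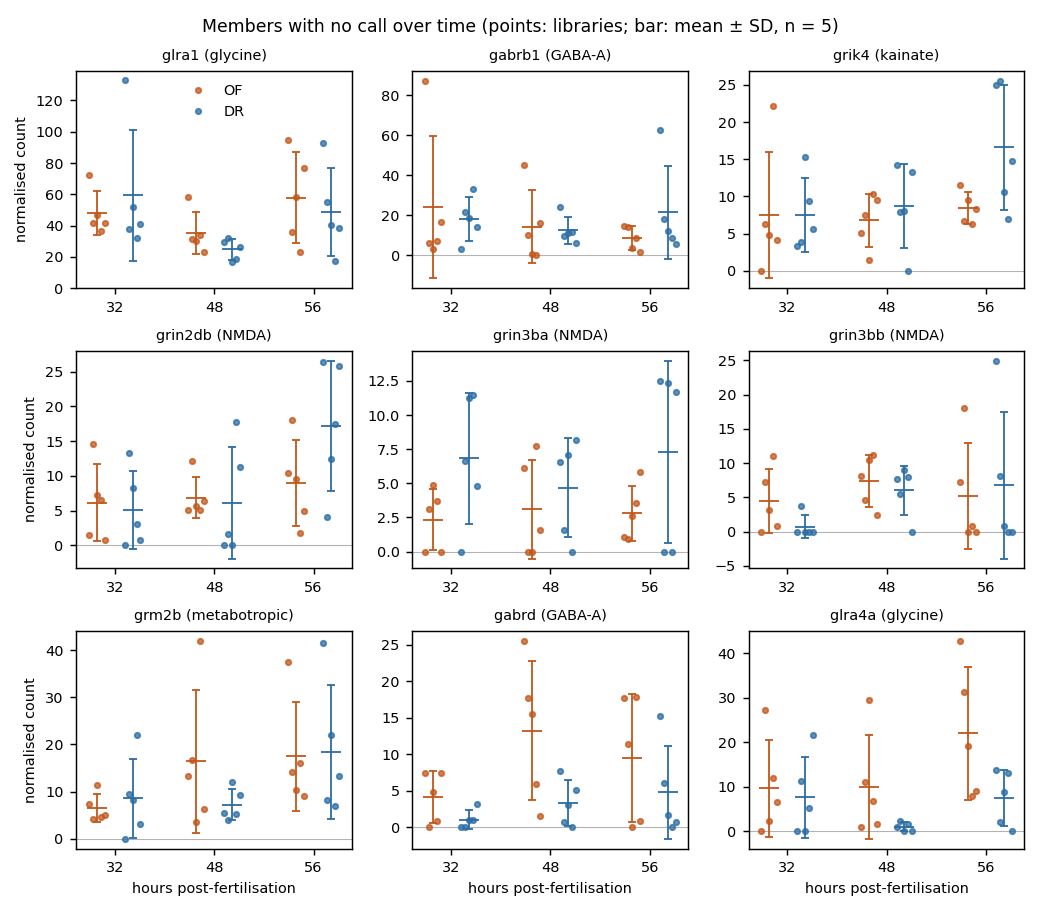
The 9 members with no call between times in the limma fit of all libraries are plotted as normalised counts by time, with OF (orange) left of DR (blue), a point per library and a bar for the mean ± SD of 5 libraries. The gene glra1 keeps 17.1 or more in all libraries, gabrb1 has its highest point (87.4) in OF at 32 hpf, and the groups of most genes overlap.

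Between 48 and 56 hpf no member was called in either region by limma or edgeR, where 0.0173% of all genes were called in OF and 0.0115% in DR. At an unadjusted p under 0.05 there were 6 members in OF and 11 in DR. The log2 fold change was positive in 50 of 56 members in OF and in 52 in DR, with a median of 0.99 and 1.00 against 0.05 and 0.06 over all genes. Among the members with a mean of 20 or more at 56 hpf, the mean at 48 hpf was a median of 58.0% of it in OF (41 members) and 52.2% in DR (38 members). The spread at 48 hpf was large. The members summed to 4282, 4843, 5376, 1471 and 889 in OF replicates 1 to 5 and to 2603, 1926, 3051, 604 and 1142 in DR. In both regions replicates 4 and 5 were thus below replicates 1 to 3, replicate 5 with the pair that goes against its labels.

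Replicates 4 and 5 at 48 hpf differed in the same way in marker genes of other kinds. Markers of proliferating progenitors (12 genes) summed to 49132 and 55772 in OF replicates 4 and 5, against 28673 to 33237 in replicates 1 to 3. In DR the same sums were 74296 and 56340, against 40380 to 52277. Markers of photoreceptors (19 genes) summed to 21364 and 11685 in these OF libraries, against 40363 to 72446 in the other OF libraries. Whether this takes part in the spread of receptor genes was not tested.

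At 56 hpf OF replicate 1 had the highest receptor sum (9377, against 3931 to 7081) and the lowest progenitor sum (17397, against 22726 to 36888) of its group. DR replicate 1 was likewise highest in receptors (6285, against 1665 to 4239) and lowest in progenitor markers (31304, against 38031 to 52984).

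Between OF and DR no receptor gene was called with all libraries, a pseudocount of 1 and no pairing. Unpaired fits with a pseudocount of 0.5 or without OF replicate 5 called grin1a at 32 hpf, as given below. With all libraries and no pairing, 0 of 56 members were called at 32, 48 and 56 hpf, by limma and by edgeR. Of all genes 1.14%, 0.00576% and 0.253% were called by limma at these times. At an unadjusted p under 0.05 there were 3, 8 and 5 members. The log2 fold change of OF against DR was positive in 34 of 56 members at 32 hpf and in 47 at 48 and at 56 hpf, with medians of 0.16, 0.80 and 0.75. Over all genes the medians were 0.06, 0.11 and 0.08. The change from 32 to 56 hpf was not shown to differ between the regions: no member was called for it by either tool (0.00576% of all genes were by limma), and 1 had an unadjusted p under 0.05.

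OF and DR libraries of the same number and time deviated together, so the pair was also fitted as a block. Left out were 2 pairs. That of replicate 1 at 32 hpf had reads in the fewest genes, and that of replicate 5 at 48 hpf goes against its labels. This fit called 3 members at 32 hpf, 7 at 48 hpf and 2 at 56 hpf, where 3.25%, 4.5% and 4.72% of all genes were called. At 56 hpf the share of members was below that of all genes, and at 32 hpf it rested on 3 genes with few reads. At 48 hpf all 7 were higher in OF, where 3.04% of all genes were. They included all 4 rho members, gabra6a and grin1b. With all 15 pairs in the block the counts were 3, 1 and 1, where 2.82%, 0.202% and 2.25% of all genes were called.

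The rho gene gabrr3b was higher in OF in each of the 4 pairs kept at 48 hpf. It had 238, 226, 318 and 24 normalised counts in OF and 146, 70.9, 28.2 and 0.89 in the DR libraries of replicates 1 to 4. Its log2 fold change was 2.38 ± 0.47 (SE, adjusted p = 0.00802). In the pair of replicate 5 the library labelled OF had 11.2 and that labelled DR none. For gabrr3a the values in these 4 pairs were 167, 144, 143 and 13.7 in OF and 95.4, 20.5, 74.4 and 3.55 in DR, a log2 difference of 1.55 ± 0.43 (SE, adjusted p = 0.0461). Its relative gabrr2a had 42.9, 64.3, 71 and 8.57 in OF and 9.86, 15, 16.1 and 0 in DR, a log2 difference of 2.35 ± 0.61 (SE, adjusted p = 0.0348). In every kept pair both genes were higher in OF, although the groups as a whole overlapped. For gabrr1 the values were 51.1, 13.1, 36.5 and 3.43 in OF and 34, 0, 0 and 0 in DR, so that 3 DR libraries lacked a read, with a log2 difference of 2.94 ± 0.75 (SE, adjusted p = 0.0333).

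Beside the rho genes, gabra6a (ENSDARG00000075058), an alpha6 subunit gene called at 48 hpf, had 11.2, 20.5, 13.3 and 4.28 normalised counts in OF, against 1 read in DR replicate 4 and none in DR replicates 1 to 3, a log2 difference of 3.34 ± 0.73 (SE, adjusted p = 0.0146). The GluN1 gene grin1b had 298, 238, 317 and 39.4 in OF and 98.7, 78.8, 115 and 0.89 in DR, a log2 difference of 2.26 ± 0.48 (SE, adjusted p = 0.0117). Both were higher in OF in each kept pair. These calls depended on which pairs were kept: when 1 more pair was left out, an alternative chosen after seeing the data, 1 to 4 members were called, and none of the 7 was called in all 4 of these fits. The gene grin1b was called without replicate 1, 2 or 3 but not without replicate 4, and gabrr3b without replicate 1 or 2 but not without replicate 3 or 4.

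At 56 hpf gabrr1 and gabra6a were higher in OF in all 5 pairs. The rho gene gabrr1 had 66.8, 21.8, 13, 24.1 and 19.1 normalised counts in OF and 18, 0, 2.65, 9.57 and 0 in DR, a log2 difference of 2.77 ± 0.67 (SE, adjusted p = 0.0218). The alpha6 gene gabra6a had 50.1, 17.1, 22.5, 8.94 and 0.83 in OF and 9.71, 0, 2.65, 0 and 0 in DR, a log2 difference of 2.66 ± 0.66 (SE, adjusted p = 0.0235), so that 3 DR libraries were without a read. Both calls were lost in some of the fits that left out 1 more pair: gabrr1 was called without replicate 1, 3 or 4, and gabra6a without replicate 5. The values of gabrr2a, gabrr3a, gabrr3b and grin1b were likewise above those of DR in all 5 pairs of 56 hpf, with adjusted p of 0.0589, 0.173, 0.108 and 0.0522.

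**Figure D5:**
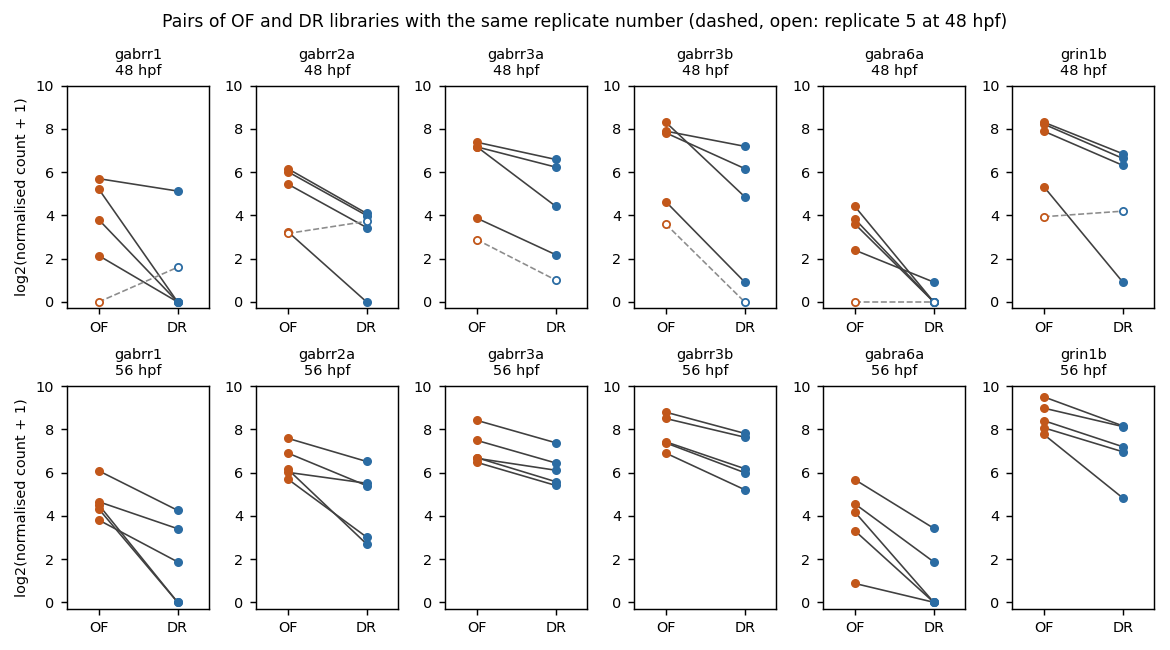
Lines join OF (left, orange) and DR (right, blue) libraries of the same replicate number, as log2(normalised count + 1), for 6 genes at 48 hpf (top) and 56 hpf (bottom); dashed lines and open points mark replicate 5 at 48 hpf, whose regional genes go against its labels. All solid lines fall from OF to DR, while the dashed line does not for gabrr1, gabrr2a, gabra6a and grin1b.

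At 32 hpf the members called by the paired fit had few reads. Both grin1a and gria3a were higher in OF in 3 of the 4 pairs kept, and were without a read in the libraries of replicate 5. The log2 difference was 2.32 ± 0.50 (SE, adjusted p = 0.0112) for grin1a and 1.69 ± 0.35 (SE, adjusted p = 0.00844) for gria3a. Neither was called in the fit of all libraries without pairing, where adjusted p was 0.0874 and 0.585. That fit called grin1a with a pseudocount of 0.5 (adjusted p = 0.03) or without OF replicate 5 (adjusted p = 0.0109). When 1 more pair was left out, 0 to 3 members were called at 32 hpf.

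Some markers of other cells were higher in OF in the same paired fit at 32 hpf, where 2.81% of all genes were higher and 0.449% lower. Of 8 red blood cell genes 6 were higher and of 8 endothelial genes 3, none lower. The red blood cell gene slc4a1a differed by 5.12 ± 0.83 (SE, adjusted p = 0.001), and the endothelial genes erg by 4.24 ± 0.71 (SE, adjusted p = 0.0015) and etv2 by 2.35 ± 0.37 (SE, adjusted p = 0.000803). Endothelial genes summed to 395 to 839 per OF library and 30 to 236 per DR library at that time, and these groups did not overlap. Pigment epithelium genes went both ways. In OF, pmela was lower, at -0.71 ± 0.18 (SE, adjusted p = 0.0303), and so was tyrp1b, at -0.90 ± 0.16 (SE, adjusted p = 0.00237). The pigment epithelium gene rpe65a was higher, at 1.16 ± 0.30 (SE, adjusted p = 0.0419), and the others of that list were not called. Of the neuronal lists, 2 of 10 ganglion cell genes, 2 of 9 amacrine cell genes, 2 of 9 bipolar cell genes and 2 of 8 horizontal cell genes were higher in OF, as were 3 of 19 photoreceptor genes. The gene tfap2a is in both the amacrine and the horizontal list and is 1 of the 2 called in each. The bipolar cell gene bhlhe23 differed by 1.78 ± 0.19 (SE, adjusted p = 1.07e-05). What these cells contribute to the values of grin1a and gria3a was not tested.

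Markers of photoreceptors, bipolar cells and progenitors differed between OF and DR in the same paired fit. Over all genes, 3.04% were higher and 1.46% lower in OF at 48 hpf, and 2.41% and 2.32% at 56 hpf. Of 19 photoreceptor genes, 12 were higher in OF at 48 hpf and 16 at 56 hpf, and none was lower. Of 9 bipolar cell genes, 6 were higher at 48 hpf and 5 at 56 hpf. Of 12 progenitor genes, 4 were lower in OF at 48 hpf and 10 at 56 hpf. Amacrine cell genes did not pass, with a smallest adjusted p of 0.0929 (gad1b) at 48 hpf and 0.26 (ptf1a) at 56 hpf. The smallest of the horizontal cell genes at 48 hpf was 0.0506 (onecut1). At 56 hpf only onecut1 passed among the horizontal cell genes, and it was lower in OF, at -0.80 ± 0.13 (SE, adjusted p = 0.00103). The photoreceptor genes summed to 37479 to 113703 per OF library at 56 hpf, against 17295 to 29348 per DR library, and the groups did not overlap. Progenitor genes summed to 17397 to 36888 in OF and to 31304 to 52984 in DR at that time. What these markers contribute to the receptor differences was not tested.

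Genes that supply the transmitters changed over the same interval. Over all genes, 29.7% were higher and 12.5% lower at 56 against 32 hpf in OF, and 26.7% and 9.03% in DR. Of 15 tested genes of glutamate transport and synthesis, 10 were higher and 1 lower at 56 against 32 hpf in OF, and 8 and 1 in DR. The vesicular glutamate transporter gene slc17a7a had 45.6 to 115 normalised counts in OF at 56 hpf against 0 to 6.28 at 32 hpf, and changed by 4.48 ± 0.60 (SE, adjusted p = 5.67e-07). An uptake transporter of photoreceptor and bipolar cell terminals, slc1a7a, had 198 to 697 against 0 to 7.30 and changed by 7.26 ± 0.76 (SE, adjusted p = 9.17e-09). The gene that fell was slc1a3a, a glutamate transporter known from glia. It had 55.1 to 89.5 normalised counts at 56 hpf against 281 to 496 at 32 hpf in OF and 70.6 to 134 against 236 to 386 in DR. In the paired fit of OF against DR, 3.04% of all genes were higher in OF at 48 hpf and 2.41% at 56 hpf. Of this list, 4 genes were higher in OF at 48 hpf and 2 at 56 hpf. Among them, slc1a7a differed by 2.46 ± 0.52 (SE, adjusted p = 0.0114) at 48 hpf, and the glial transporter gene slc1a3b by 4.66 ± 0.83 (SE, adjusted p = 0.00362) at 48 hpf and 2.81 ± 0.74 (SE, adjusted p = 0.0347) at 56 hpf.

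Of 10 genes of GABA and glycine supply, 7 were higher and 1 lower in OF, and 6 and 1 in DR. Of all genes, 29.7% were higher and 12.5% lower in OF, and 26.7% and 9.03% in DR. The GABA-making enzymes gad2 and gad1b had 229.5 to 375 and 143 to 360.0 normalised counts in OF at 56 hpf, against 0 to 13.8 and 0 to 5.92 at 32 hpf. The vesicular transporter of both inhibitory transmitters, slc32a1, had 627 to 996 in OF at 56 hpf against 0 to 21.1 at 32 hpf and changed by 7.20 ± 0.72 (SE, adjusted p = 4.28e-09). The GABA uptake gene slc6a1b had 168 to 949 against 0 to 4.87 (adjusted p = 2.2e-08). It was also higher in OF than in DR in the paired fit, by 1.78 ± 0.47 (SE, adjusted p = 0.037) at 48 hpf and 1.76 ± 0.42 (SE, adjusted p = 0.0191) at 56 hpf. The glycine transporter gene slc6a9 (GlyT1) was the one that fell, to 339.6 to 527 in OF at 56 hpf, against 561 to 1285 at 32 hpf, a change of -0.82 ± 0.22 (SE, adjusted p = 0.00304).

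Of 3 chloride transporter genes, whose products set whether GABA excites or inhibits, 2 were higher at 56 against 32 hpf in OF and none in DR, counts too small to be set against the 29.7% and 26.7% of all genes that were higher. A KCC2 gene, slc12a5b, had 0 to 40.8 normalised counts in OF and 0 to 16.6 in DR at 56 hpf. It had no read at 32 hpf (adjusted p = 0.00809 in OF and 0.0775 in DR). Its paralog slc12a5a was read before fusion, at 11.7 to 213 in OF and 10.4 to 44.9 in DR at 32 hpf. At 56 against 32 hpf slc12a5a was not called, at -0.165 ± 0.63 (SE, adjusted p = 0.856) in OF and 0.398 ± 0.63 (SE, adjusted p = 0.65) in DR. The NKCC1 gene slc12a2 changed by 1.24 ± 0.48 (SE, adjusted p = 0.0368) in OF and 0.55 ± 0.48 (SE, adjusted p = 0.379) in DR. No gene of this list was called for OF against DR at any time. The change since 32 hpf was not shown to differ between the regions for slc12a5b or slc12a2 (adjusted p = 1 for both).

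Genes of receptor partners were also higher at 56 against 32 hpf, when 29.7% of all genes were higher in OF and 26.7% in DR. Of 41 tested partners of glutamate receptors (scaffolds, auxiliary subunits, pentraxins and cerebellins), 32 were higher in OF, and 30 were higher and 1 lower in DR. The AMPA receptor auxiliary gene cacng3b had 662 to 1039 normalised counts in OF at 56 hpf against 0 to 8.92 at 32 hpf, a change of 8.61 ± 0.51 (SE, adjusted p = 3.29e-13). Its relative cacng2a changed by 4.83 ± 0.63 (SE, adjusted p = 3.92e-07) in OF, and the pentraxin receptor gene nptxrb by 6.18 ± 0.59 (SE, adjusted p = 2.18e-09). The scaffold gene dlg3 was the partner that was lower in DR, at -0.70 ± 0.23 (SE, adjusted p = 0.0172).

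Of 9 partners of mGluR6 in ON bipolar cells, all were higher in OF at 56 hpf and 7 in DR. The share of all genes that were higher was 29.7% in OF and 26.7% in DR. The gene rgs11, whose product ends the G protein signal, had 118 to 346 normalised counts in OF at 56 hpf and 77.2 to 290.0 in DR, against 0 in OF and 0 to 1.04 in DR at 32 hpf. A gene of the Go alpha subunit, gnao1b, had 1491 to 4807 in OF against 455 to 1577 in DR at 56 hpf. In the paired fit it was higher in OF by 1.54 ± 0.20 (SE, adjusted p = 0.000209) at 48 hpf and 1.43 ± 0.18 (SE, adjusted p = 0.000133) at 56 hpf. The gene lrit3a, whose product helps to place TRPM1 channels in these cells in the mouse, was higher in OF in that fit by 3.92 ± 0.80 (SE, adjusted p = 0.00976) at 48 hpf and 4.00 ± 0.72 (SE, adjusted p = 0.00278) at 56 hpf. For grm6b itself the paired difference was 0.86 ± 0.39 (SE, adjusted p = 0.219) at 48 hpf and 0.76 ± 0.35 (SE, adjusted p = 0.248) at 56 hpf.

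Of 19 tested partners of inhibitory receptors, 16 were higher at 56 hpf in OF and 17 in DR, where 29.7% and 26.7% of all genes were. The gephyrin gene gphnb, which encodes the scaffold of glycine and GABA-A receptors, changed by 6.40 ± 0.68 (SE, adjusted p = 1.26e-08) in OF, and in DR it had 108 to 236 normalised counts at 56 hpf against 0 to 6.26 at 32 hpf (adjusted p = 4.34e-08). The GABA-A auxiliary gene lhfpl4a changed by 5.65 ± 0.67 (SE, adjusted p = 8.06e-08) in OF and 4.47 ± 0.67 (SE, adjusted p = 4.04e-06) in DR. The neuroligin gene nlgn2b and the GABA-B auxiliary gene kctd16a had no read in any library of 32 hpf, and 15.2 to 42.5 and 15.2 to 50.5 normalised counts in OF at 56 hpf. None of the 19 was called for OF against DR in the paired fit. In that fit 3.25%, 4.5% and 4.72% of all genes were called at 32, 48 and 56 hpf.

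Markers of retinal cell types moved in the same interval, in which 29.7% of all genes were higher in OF and 26.7% in DR. The shares of all genes that were lower were 12.5% and 9.03%. Of 12 progenitor genes, 11 were lower at 56 against 32 hpf in OF and 9 in DR, and their sum was 17397 to 36888 against 96743 to 109518 in OF. Ganglion cell genes were higher in 9 of 10 in both regions, amacrine cell genes in 7 of 9 in OF and 8 in DR, horizontal cell genes in 6 of 8 in both, bipolar cell genes in 7 of 9 in OF and 6 in DR, and photoreceptor genes in 18 of 19 in OF and 13 in DR. Of 7 Müller glia genes, rlbp1b, glula and cahz were higher and slc1a3a lower in OF, and rlbp1a, rlbp1b and cahz were higher and gfap and slc1a3a lower in DR. The sums of lens genes stood apart in OF replicate 2 (1501, against 129 to 340) and DR replicate 1 (2009, against 78 to 122) at 56 hpf, and those of red blood cell genes in OF replicate 1 at 32 hpf (48414, against 2258 to 7203). Among cells that a dissection could carry along, pigment epithelium genes were higher in 7 of 9 in OF and 3 in DR, endothelial genes in 0 of 8 in OF and 4 in DR (cdh5, erg, etv2 and pecam1), and red blood cell genes in 0 of 8 in OF and 3 in DR (hbbe2, slc4a1a and alas2). The share of pigment epithelium and red blood cell genes higher in DR was close to that of all genes. Of 15 genes of brain regions outside the retina, 4 passed the filter, and gbx2, which is also known from amacrine cells of the mouse, was higher in both regions and dlx5a in DR. Of 8 lens genes 4 passed it, with cryba4 and mipa higher in both regions and crybb1 in OF. What any of these cell types contribute to the receptor values was not tested.

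The filter left 11 matching genes out. They were gabra6b, gabrr2b, grid2ipa, grik5, grin2ca, grin2cb, grin2da, grm1b, grm3, grm5a and grm5b, none of which exceeded 33.3 normalised counts in any library. Just outside the threshold, grin2cb and grm1b reached 10 in 4 libraries, with means over 30 libraries of 3.56 and 3.4. Just inside it, grid1b, grin3ba and grin3bb did so in 5 libraries, with means of 6.11, 4.51 and 5.12. A further 9 receptor symbols are spelled in capitals in the table and were not matched by the rule. Among them, GABRA2 averaged 194 normalised counts in OF and 107.8 in DR at 56 hpf, against 6.16 and 3.5 at 32 hpf. The rho gene GABRR1 (1 of many) was at 10 or more in 27 libraries and was not silent before fusion. It averaged 28.14 in OF and 35.98 in DR at 32 hpf. Its means were 65.26 and 23.47 at 48 hpf, and 123.49 and 58.16 at 56 hpf.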

How the data were processed

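RNA was sequenced from dissected OF and DR retina in 30 libraries, made from RNA extracted with a Qiagen kit for fixed material and amplified with a SMARTer kit for low input, per the labels' protocols. The deposited values are a signal, reads per gene that the authors divided by a size factor per library. Per the submitters' processing notes, the build was GRCz10 and the tools included STAR 2.4.0, HTSeq, DESeq2, Picard and Trim Galore, whose roles are not stated. Annotation release, strand setting and gene lengths are not given in the sources used here, so levels were compared between libraries and not between genes, and reads of close paralogs or antisense genes could be shared. Dividing the values by their smallest step gave reads that were whole within 0.01 in 100.0% of cases, although 1 DR library (replicate 3, 48 hpf) had a step so close to 1 that reads and scaled values could not be told apart. The totals of these reads are the depth. A library at 0 allows up to 3 reads, which covers counting error only.

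Genes with 10 or more in at least 5 libraries were tested with limma 3.58.1 in R 4.3.3, on log2(value + 1) with 6 group means over all 30 libraries and two-sided p adjusted by Benjamini-Hochberg over 17360 genes. Fold changes on this scale understate those of low genes. The fits were tested on simulated counts. The edgeR 4.0.16 quasi-likelihood test on the recovered reads was an alternative, and at 56 against 32 hpf it called 7267 genes in OF and 6120 in DR. Libraries of OF and DR with the same number and time deviated together from their group means (Pearson r across genes 0.23 to 0.52 in all 15 pairs, median 0.38), so the labels' numbers pair regions within a time. Those of the same number at other times did not (median r 0.04).

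The members, the 20 gene lists (262 genes, of which 242 were found by name and 9 by current symbol) and the tests were chosen with earlier results of these data known. By rule, up to 4 called members of each receptor type with the smallest adjusted p at 56 against 32 hpf in each region were described, with the 2 highest of each type, all members called between OF and DR and up to 4 genes of each partner list. Other genes were added after their values were seen, namely the members without a call, gabra3, gria1b, gria2b, gria4a, grin2bb, grm2a, grm6a, gabra5, gabrb2, gabrz, glrba, slc1a3a, slc1a3b, slc6a9, slc12a2, lrit3a and dlg3. The gene slc12a5a was added in the same way. Alternatives changed the pseudocount, filter, scaling, libraries fitted, test and block, or left out libraries. The results of 4 members are not reported singly here, although counts over the members include them. No sequences or coordinates were used here.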

Additional observations from a re-analysis of the deposited data

Results flagged for a closer look

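Among 172 sets of 5 libraries examined (members and receptor types in each region and time where the median was 10 or more), 9 held 1 library far from the other 4. Chance marks about 1 in 20 such sets. Of the 9, 5 were in DR replicate 1 at 56 hpf, the library with reads in the most genes. In that library grin2aa was 149.8 (24.4 to 59.1 in the other 4) and grm6b 256.7 (102.3 to 141.2). It also had gabrb4 at 295.5 (32 to 84.7), gabbr1a at 95.73 (12.5 to 20.01) and glra3 at 48.56 (15.6 to 22.1). Lens genes summed to 2009 there, against 78 to 122 in the other DR libraries of that time, and what this has to do with the receptor values was not tested.

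In OF replicate 1 at 56 hpf gabrr1 was 66.77 (13 to 24.1 in the other 4) and glra2 was 63.64 (24.9 to 35.5). This library had the highest summed receptor value and the lowest sum of progenitor genes of its group. At 32 hpf, summed GABA-A values were 102.2 in OF replicate 1 (8.3 to 33.2 in the other 4), of which gabrb1 gave 87.4. Summed glycine receptor values were 133.3 in DR replicate 1 of that time (37.6 to 64.9 in the other 4), all of it from glra1. Both libraries of replicate 1 at 32 hpf had reads in fewer genes than any others.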

How the results depend on the processing

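The filter at a mean of 50 or more left 16 members in the test, so that 15 (OF) and 16 (DR) were called at 48 against 32 hpf and 16 in each region at 56 hpf. Quantile scaling, chosen after seeing the data, moved the counts at 48 hpf to 27 in OF (26 higher, 1 lower) and 20 in DR (16 higher, 4 lower), and the cause was not tested. Leaving out 1 library at a time gave 38 to 45 members in OF and 28 to 35 in DR at 48 hpf, and 44 to 46 and 38 to 44 at 56 hpf. Calls kept under all 18 alternatives other than the mean filter numbered 26 of 43 (OF) and 16 of 34 (DR) at 48 hpf, and 37 of 45 and 27 of 41 at 56 hpf. Without quantile scaling these were 37, 27, 44 and 36. The count test called 41 (OF) and 34 (DR) at 48 hpf and 44 and 42 at 56 hpf.

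For OF against DR the replicate block over all pairs called 3, 1 and 1 members at 32, 48 and 56 hpf, and the block without 2 pairs 3, 7 and 2. Leaving out single libraries or 1 further pair gave 0 to 3, 0 to 4 and 0 to 1. A pseudocount of 0.5 called 1 member at 32 hpf, grin1a. Without a block, 0 members were called after leaving out the same 2 pairs. Counts for 56 against 48 hpf and for the difference of changes between regions stayed at 0 under all alternatives run, the paired block among them. A block of the replicate number across times, which the data do not pair, left the counts of times within 1.5 times. At 32 hpf most members held 0 to 10 reads per library, so members without a call there were not shown to be alike in both regions.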
